A study of Citrullus lanatus with 30 samples.

Results

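Flesh of watermelon fruit (Citrullus lanatus subsp. vulgaris, cultivar 97103) sampled at 10 DAP, the 3 RNA-seq libraries labelled BW, was compared with flesh sampled at 5 DAP, the 3 libraries labelled SW. These are 6 of the 30 libraries in the series, and they were chosen by their titles and age labels, not by any measured value. The labels give both groups the same cultivar, tissue and RNA protocol and name no treatment or transgene, so that age is the stated difference. The other libraries hold flesh of 0, 1, 20 and 30 DAP, 20 DAP flesh labelled Mock or 5_Aza, and rind of 20 and 30 DAP, and of these the flesh stages of 0, 20 and 30 DAP are given here as context. DAP is commonly read as days after pollination, and the labels do not spell it out.

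In cucurbits the ovary wall and placenta enlarge after pollination first by cell division and later mainly by expansion of cells with large vacuoles. Watermelon flesh stays pale during this growth and gains its carotenoid colour and most of its sugar later, when it ripens. The comparison of 5 with 10 DAP asks which transcripts changed while the fruit was still young. The values were FPKM (fragments scaled to transcript length and to the size of the library) for 22596 loci, each known in the files by its position alone, on sequences called WM97pbV1_Chr01 through WM97pbV1_Chr11 or on a scaffold. What a locus encodes, where its exons, introns and UTRs lie, and whether the libraries carry the markers expected of flesh were therefore not analysed here. Chromosome, start and end identify each locus below, and its span is the distance it covers with any introns included.

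The 3 libraries of 5 DAP summed to between 762714 and 767381 FPKM and those of 10 DAP to between 801603 and 818890 FPKM. On log2(FPKM + 1), the lowest correlation between libraries of the same age was 0.9899. At loci with a mean of at least 10 FPKM, the median coefficient of variation was 3.32% at 5 DAP and 3.18% at 10 DAP. No read totals came with the values, but low values kept a trace of whole fragments. Among 699 to 821 low loci per library, 18.2% to 22.6% lay within 0.8% of 1 or 2 fragments' worth, once 205 to 225 bases had been taken off the span. Other settings of the same search found a median of 0.683% to 0.771%. The step corresponds to between 33180000 and 35950000 fragments per library, and both ages lie in that range. At an intronless locus of 400 bases, 1 FPKM then stands for only 5.98 to 7.01 fragments, so low values of short loci are coarse. The labels do not say whether the 3 libraries of an age came from separate fruits. The p-values below measure the spread between libraries, which may be technical. Bulk RNA cannot tell fewer cells of a type from less RNA per cell.

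The transcriptome of the flesh shifted broadly between 5 and 10 DAP, mostly by small amounts. Of 17245 loci tested, 4268 (24.7%) were higher and 7959 (46.2%) were lower at 10 DAP (limma, Benjamini-Hochberg adjusted p under 0.05). A change of at least 2-fold on the FPKM + 1 scale was reached by 907 of the higher loci (5.26% of those tested) and by 1759 of the lower loci (10.2%). Changes of at least 4-fold were made by 230 loci upward and 306 downward. At 16-fold the balance turned, with 24 loci higher and 17 lower. The 3 libraries of one age did not overlap the 3 of the other at 900 of the 907 risen loci and at 1749 of the 1759 fallen loci. Over all loci tested, such separation held for 27% upward and 49.4% downward. The excess of falls depends in part on how libraries are scaled. Median-of-ratios scaling shifted the log2 change of the typical locus upward by 0.12. Of the 17180 loci tested under both scalings, 5676 were then higher (33%) and 6341 lower (36.9%), and the 2-fold limit was passed by 1093 upward (6.36%) and 1393 downward (8.11%). With a pseudocount of 0.1 in place of 1, the fallen loci at 2-fold numbered 2641.

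**Figure D1:**
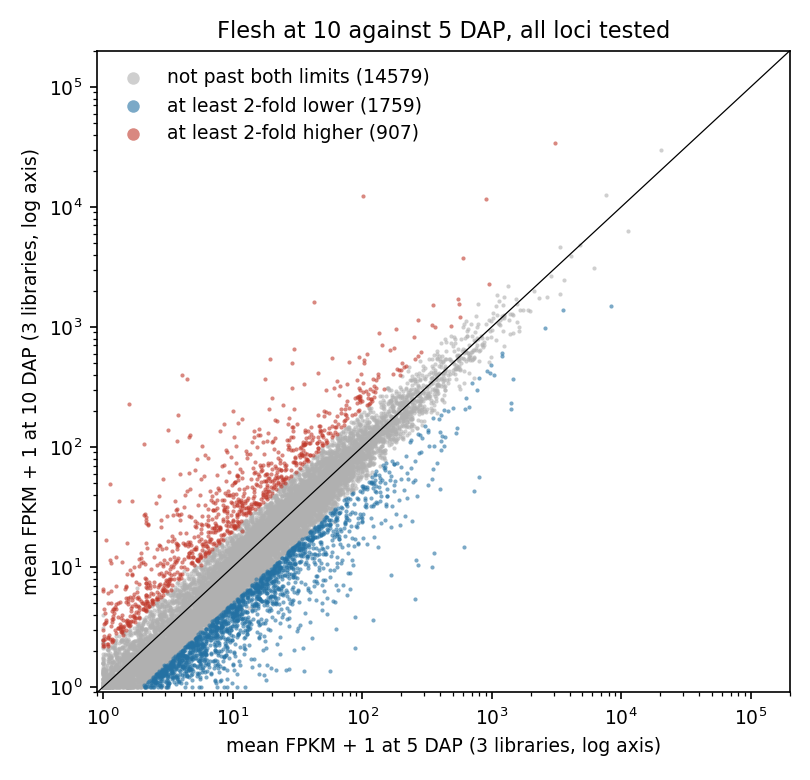
Mean level of each of the 17245 tested loci at 5 DAP (x axis) and 10 DAP (y axis), as FPKM + 1 on log axes, with 3 libraries per age and the diagonal marking equal levels. The 907 loci in red were at least 2-fold higher and the 1759 in blue at least 2-fold lower at 10 DAP. Blue points outnumber red ones at low levels, and red ones outnumber blue ones at high levels.

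Rises were most frequent among abundant transcripts and falls among scarce ones. Loci were classed by the mean of whichever age was higher. Between 1 and 10 FPKM, 235 of 5460 loci rose at least 2-fold (4.3%) and 794 fell (14.5%). Between 10 and 100 FPKM, 467 of 9155 rose (5.1%) and 817 fell (8.92%). Above that the order turned. Between 100 and 1000 FPKM, 192 of 1518 loci rose (12.6%) and 139 fell (9.16%), and at 1000 FPKM or more 13 of 81 rose (16%) and 9 fell (11.1%). The order in each of these 4 classes was the same under median-of-ratios scaling, where 264 rose and 618 fell in the lowest of them and 14 rose and 7 fell in the highest. The 1031 tested loci that stayed under 1 FPKM at both ages could not reach 2-fold, because the fold scale adds 1 to each value. Whether they changed is thus not shown by these counts. For the same reason the scale understates changes between 1 and 10 FPKM.

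The number of loci at or above a fixed FPKM limit fell. At 5 DAP 16010 ± 19 loci reached 1 FPKM (SD, n = 3) and at 10 DAP 15302 ± 25.7 did, with every library of 10 DAP below every library of 5 DAP. The exact two-sided permutation test gave p = 0.1, the smallest that 3 libraries against 3 can reach. At 0.5 FPKM the difference was -619 loci and at 5 FPKM it was -812. Of all 22596 loci, 614 were at 1 FPKM or more in the 3 libraries of 5 DAP and under 1 FPKM in the 3 of 10 DAP, and 165 did the reverse. Most of those crossings were small, since 69 of the 614 had a mean of 5 FPKM or more at 5 DAP and 25 of the 165 had one at 10 DAP. Of the 614, 518 had also been at a mean of 1 FPKM or more at 0 DAP, and 43 were at 1 FPKM or more at 20 DAP. Of the 165, 43 had been at that level at 0 DAP and 115 were at 20 DAP. All these counts use FPKM as deposited and were not repeated under median-of-ratios scaling. That scaling divides values by 1.096 to 1.104 at 5 DAP and by 0.9944 to 0.9999 at 10 DAP, so its part in the difference was not tested.

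At the other end of the scale, the highest loci came to hold a larger share of the summed FPKM. The 100 highest loci of a library held 23.9 ± 0.27% of the summed FPKM at 5 DAP (SD, n = 3) and 29.0 ± 0.38% at 10 DAP (exact two-sided permutation test, p = 0.1). The 10 highest held 9.57 ± 0.22% and 15.3 ± 0.37%. Loci spanning under 500 bases moved with this result, holding 11.7 ± 0.11% of the summed FPKM at 5 DAP and 15.1 ± 0.15% at 10 DAP. Among these short loci, chr10:21559312-21559608 went from a mean of 3063 to 34396 FPKM, and chr8:4243307-4243756 from 100.5 to 12280 FPKM. The chromosome 10 locus was the highest at 10 DAP and alone held 4.24 ± 0.12% of the summed FPKM there. The gain thus rests largely on few short loci. Without loci under 500 bases, the 100 highest loci held 23.3 ± 0.27% and 25.1 ± 0.30%, a difference of 1.78 percentage points in place of 5.06. Of the low values described above, 18.2% to 22.6% matched 1 or 2 fragments' worth once the length had been reduced by 205 to 225 bases. That reduction is large beside a span of under 500 bases, and its part in the levels of single short loci was not tested.

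**Figure D2:**
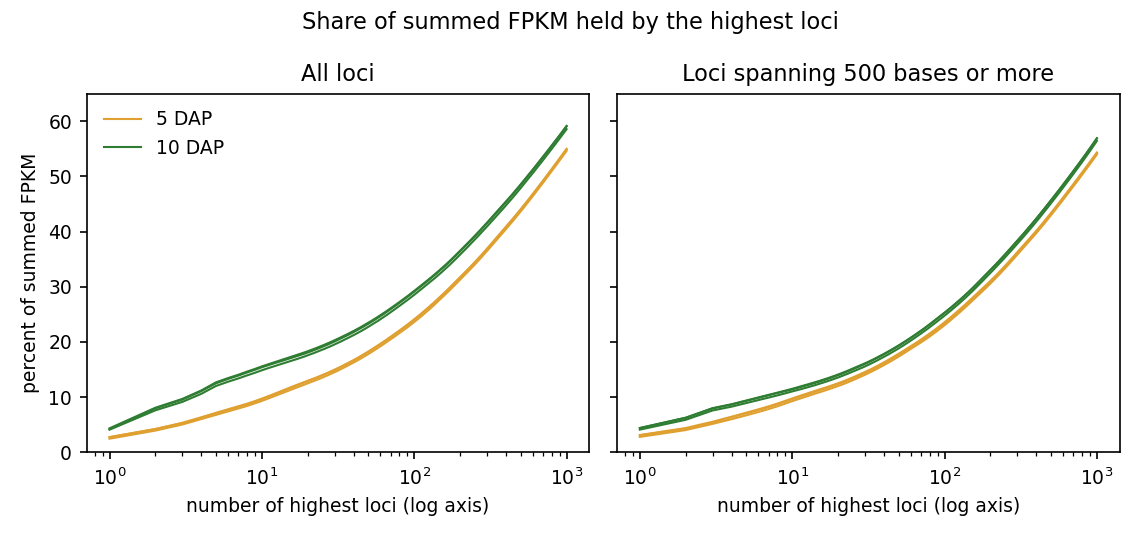
Percent of the summed FPKM (y axis) held by a given number of the highest loci (x axis, log scale), 1 line per library, for all loci and for loci of 500 bases or more. The 3 lines of 10 DAP lie above the 3 of 5 DAP in both panels, and the gap at 100 loci narrows from 5.06 to 1.78 percentage points without the short loci.

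Of the 10 highest loci of each age, 6 were shared, and of the 100 highest, 71 were shared. These loci are described because they hold the most signal, and they were chosen after their values had been seen. The highest locus at 5 DAP was chr1:14395071-14396092, with 20960, 21326 and 18957 FPKM in the 3 libraries of that age. It rose to 30530, 30651 and 28132 FPKM at 10 DAP (limma, log2 change 0.55, SE 0.05, adjusted p = 9.37e-07) and was then the second highest. The locus at chr5:5830958-5832520 rose from 7599 ± 76.9 to 12648 ± 449 FPKM (SD, n = 3; limma, log2 change 0.73, SE 0.04, adjusted p = 1.45e-09). Another abundant locus, chr8:24516484-24516918, went the other way, from 11268 ± 114 to 6283 ± 134 FPKM (limma, log2 change -0.84, SE 0.10, adjusted p = 7.85e-06), and stood at 18.7 FPKM at 30 DAP. At chr9:8994585-8996097 the level dropped from 6109 ± 333 to 3091 ± 44.7 FPKM (limma, log2 change -0.98, SE 0.05, adjusted p = 2.83e-09). By contrast, chr2:5151239-5152946 held 4789 ± 138 FPKM before and 4848 ± 104 FPKM after, with no difference detected (limma, log2 change 0.02, SE 0.09, adjusted p = 0.879).

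The rises with the largest gain in FPKM began from very different levels. A short locus on chromosome 10, chr10:21559312-21559608, was at 3164, 3150 and 2876 FPKM at 5 DAP and at 35751, 34428 and 33008 FPKM at 10 DAP. It moved from the 12th to the first place among all loci, an 11.2-fold change in the means (limma, log2 change 3.49, SE 0.29, adjusted p = 2.6e-07). It spans 297 bases. On chromosome 8, chr8:4243307-4243756 stood at 101.3, 102.3 and 97.9 FPKM at 5 DAP, the 1286th place, and at 12578, 12514 and 11747 FPKM at 10 DAP, the 4th place. The means differed 122-fold, and on the FPKM + 1 scale this was the second largest rise (limma, log2 change 6.92, SE 0.11, adjusted p = 3.14e-14). The ratio of means was larger at chr2:11832719-11838102 (365-fold) and at chr3:29668148-29671288 (131-fold), both described below. A further locus among the 10 highest at 10 DAP, chr1:33422853-33423809, rose from 909 ± 22.9 to 11743 ± 307 FPKM (SD, n = 3; limma, log2 change 3.69, SE 0.04, adjusted p = 3.22e-16). The loci of chromosomes 10, 8 and 1 described here each had libraries of the 2 ages more than 10-fold apart.

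The greatest loss of FPKM was at chr2:5131165-5133091, the third highest locus of 5 DAP. Its libraries read 8032, 8624 and 8347 FPKM at 5 DAP and 1498, 1475 and 1482 FPKM at 10 DAP, a 5.61-fold fall in the means (limma, log2 change -2.49, SE 0.15, adjusted p = 7.21e-09). It had risen to its 5 DAP level from 373 FPKM at 0 DAP and went on to 146 FPKM at 20 DAP. The second greatest loss was at chr7:31179192-31179497, with 3413, 3599 and 3596 FPKM at 5 DAP and 1416, 1383 and 1357 FPKM at 10 DAP (limma, log2 change -1.35, SE 0.06, adjusted p = 5.91e-10).

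By fold change, the strongest rise was the appearance of a transcript that had been close to absent. The locus chr5:5291771-5303347, which spans 11577 bases, was at 0.497, 0.705 and 0.533 FPKM at 5 DAP and at 226, 222 and 226 FPKM at 10 DAP. The means differed 389-fold (limma, log2 change 7.16, SE 0.06, adjusted p = 1.41e-16), and at 0 DAP the mean had been 0.0288 FPKM. The signal lasted, with 146 ± 11.6 FPKM (SD, n = 3) at 20 DAP and 111 ± 2.79 FPKM later, at 30 DAP. On the FPKM + 1 scale, the strongest falls were at 2 short loci, whose means differed 58.1-fold and 44.7-fold. The ratio of means was larger at 2 loci described below, 153-fold at chr3:2722998-2728085 and 97.3-fold at chr9:8471778-8472170. With a pseudocount of 0.1 these also had the larger log2 changes, -6.91 and -6.72 against -5.83 and -5.49. At chr7:2042902-2043252 the 5 DAP libraries held 252, 259 and 250 FPKM and the 10 DAP libraries 3.89, 4.42 and 4.78 FPKM (limma, log2 change -5.57, SE 0.25, adjusted p = 6.54e-10). At chr9:35684709-35685035 they held 567, 607 and 641 FPKM against 13.9, 10.8 and 15.9 FPKM (limma, log2 change -5.40, SE 0.30, adjusted p = 3.99e-09). At the chromosome 5 locus and these 2 short loci, the ages were far apart beside the spread within an age.

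**Figure D3:**
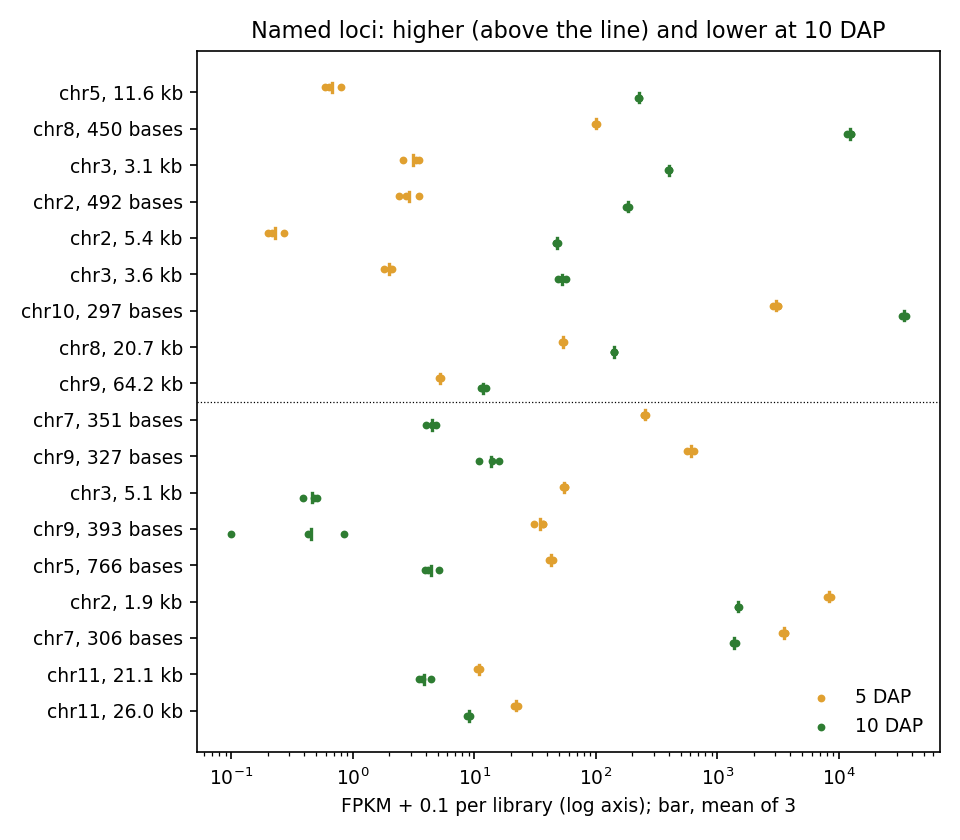
FPKM + 0.1 in each of the 6 libraries (log axis) for the 18 loci picked by the naming rule, each labelled by chromosome and span, with a bar at the mean of 3. Loci above the dotted line were higher at 10 DAP and those under it lower. The 2 ages do not overlap at any of the 18, because the naming rule required this.

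A small group of loci passed between near silence and a clear signal. Among the loci that changed at least 2-fold without overlap and averaged 10 FPKM or more at the higher age (669 upward and 964 downward), 12 risen loci had a mean under 1 FPKM at 5 DAP and 19 fallen loci had one at 10 DAP. After the chromosome 5 locus, the highest of the 12 was chr2:11832719-11838102. It was at 0.103, 0.116 and 0.173 FPKM at 5 DAP and at 49.0, 46.9 and 47.0 FPKM at 10 DAP (limma, log2 change 5.43, SE 0.09, adjusted p = 2.62e-14). The signal was down to 6.30 ± 0.70 FPKM at 20 DAP and 1.62 ± 0.29 FPKM at 30 DAP. Of the 19, the most abundant at 5 DAP was chr3:2722998-2728085, with 55.7, 55.4 and 54.0 FPKM at 5 DAP and 0.291, 0.409 and 0.380 FPKM at 10 DAP (limma, log2 change -5.37, SE 0.06, adjusted p = 1.5e-15). The next was chr9:8471778-8472170, at 36.7, 36.4 and 31.0 FPKM and then at 0, 0.326 and 0.744 FPKM (limma, log2 change -4.75, SE 0.18, adjusted p = 8.41e-11). That locus had been far higher at 0 DAP, at 485 ± 54.6 FPKM, so its fall between 5 and 10 DAP ended a longer one. Complete switches were rarer. Only 5 loci were listed at 0 in the 3 libraries of 5 DAP and at 1 FPKM or more in the 3 of 10 DAP, and 15 showed the reverse.

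Most of the 2-fold changes had the same direction as the net change from 0 to 20 DAP. This was read from libraries of 0 and 20 DAP, which hold none of the values of the 5 and 10 DAP contrast. They did enter the same limma fit, and so its filter on low values and its estimate of spread. The interval from 0 to 20 DAP also contains that from 5 to 10 DAP. An excess over all loci is therefore expected wherever a change was not undone. The shares below count net changes from 0 DAP, parts of which can have arisen before 5 or after 10 DAP. Later ages were not set against 5 or 10 DAP here, so the shares do not count how many changes persisted. Of the 907 risen loci, 653 (72%) were at least 2-fold higher at 20 than at 0 DAP and 46 (5.07%) at least 2-fold lower (limma, adjusted p under 0.05). Over all loci tested the shares were 15.1% higher and 31.6% lower. Of the 1759 fallen loci, 1475 (83.9%) were lower at 20 than at 0 DAP and 28 (1.59%) higher. At 30 against 0 DAP, 639 of the risen loci were higher (70.5%, against 18.2% of all loci), and 1461 of the fallen loci were lower (83.1%, against 32.3%). Under median-of-ratios scaling, 75.7% of the risen loci of that scaling were higher at 20 than at 0 DAP (20.1% of all loci) and 83.1% of the fallen loci were lower (26% of all loci). The 907 risen loci had medians of 5.12, 7.76, 30.15, 30.09 and 30.21 FPKM at 0, 5, 10, 20 and 30 DAP. Their median thus stood nearly level after 10 DAP. The 1759 fallen loci had medians of 19.4, 11.96, 3.42, 0.959 and 0.709 FPKM at 0, 5, 10, 20 and 30 DAP, lower at each later age. Over all loci tested the medians at these 5 ages were 14.2, 14.01, 12.4, 10.2 and 10.9 FPKM.

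Changes that lasted were counted among the 669 risen and 964 fallen loci that met the level and overlap limits. In 210 of the 669 the means at 20 and 30 DAP were both at or above that of 10 DAP and the mean at 0 DAP was at or below that of 5 DAP. The largest of these rises was the chromosome 8 locus chr8:4243307-4243756, which went on to 23218 ± 1616 FPKM (SD, n = 3) at 20 DAP and then to 30735 ± 937 FPKM, its level at 30 DAP. Next came chr2:7803807-7804298, at 3.42, 2.31 and 2.62 FPKM at 5 DAP and at 182, 179 and 188 FPKM at 10 DAP (limma, log2 change 5.61, SE 0.20, adjusted p = 5.15e-11). It reached 1845 ± 178 FPKM at 20 DAP and stood at 476 ± 21.8 FPKM at 30 DAP. The mirror course, from a higher level at 0 DAP to a lower one at 20 and 30 DAP, was followed by 430 of the 964 fallen loci. The 2 strongest were the short loci of chromosomes 7 and 9 already named, which ended at 0.209 ± 0.361 and 0.324 ± 0.379 FPKM at 30 DAP.

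Changes particular in time to 10 DAP were sought among the same 669 risen and 964 fallen loci, at a 4-fold limit. The limit holds against 5 DAP too, and over all loci tested only 230 rose and 306 fell at least 4-fold. Most of the 669 and 964 loci therefore could not qualify, and the counts do not give the share of changes that were transient. At 15 risen loci the mean at 10 DAP was at least 4-fold above that of 0, 5, 20 and 30 DAP on the FPKM + 1 scale, and at 1 fallen locus it was at least 4-fold under them all. The ratios nearest that limit were 4.86 inside and 3.97 outside it for rises. The count depends on the limit, since at 2-fold 111 of the 669 risen and 14 of the 964 fallen loci passed. The sharpest peak was at chr3:30483385-30487030, with 1.99, 1.94 and 1.71 FPKM at 5 DAP and 56.6, 49.2 and 52.8 FPKM at 10 DAP (limma, log2 change 4.23, SE 0.22, adjusted p = 1.43e-09). Its means were 2.74 FPKM at 0 DAP, 0.749 FPKM at 20 DAP and 0.801 FPKM at 30 DAP. The second, chr3:29668148-29671288, was far stronger in level, with 3.23, 2.52 and 3.40 FPKM at 5 DAP and 391, 402 and 403 FPKM at 10 DAP (limma, log2 change 6.63, SE 0.10, adjusted p = 9.54e-15). Its signal was at 18.3 ± 0.85 FPKM at 0 DAP, dipped at 5 DAP, and was back to 29.3 ± 2.92 FPKM at 20 DAP and 4.19 ± 0.62 FPKM at 30 DAP. Both peaks lie on chromosome 3. The single transient fall was at chr5:32354081-32354846, with 43.0, 44.3 and 41.2 FPKM at 5 DAP and 3.81, 5.01 and 4.06 FPKM at 10 DAP (limma, log2 change -3.06, SE 0.09, adjusted p = 5.68e-12). This locus was at 124 ± 0.82 FPKM at 0 DAP and rose again to 92.8 ± 13.6 FPKM at 20 DAP and 261 ± 4.09 FPKM at 30 DAP.

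**Figure D4:**
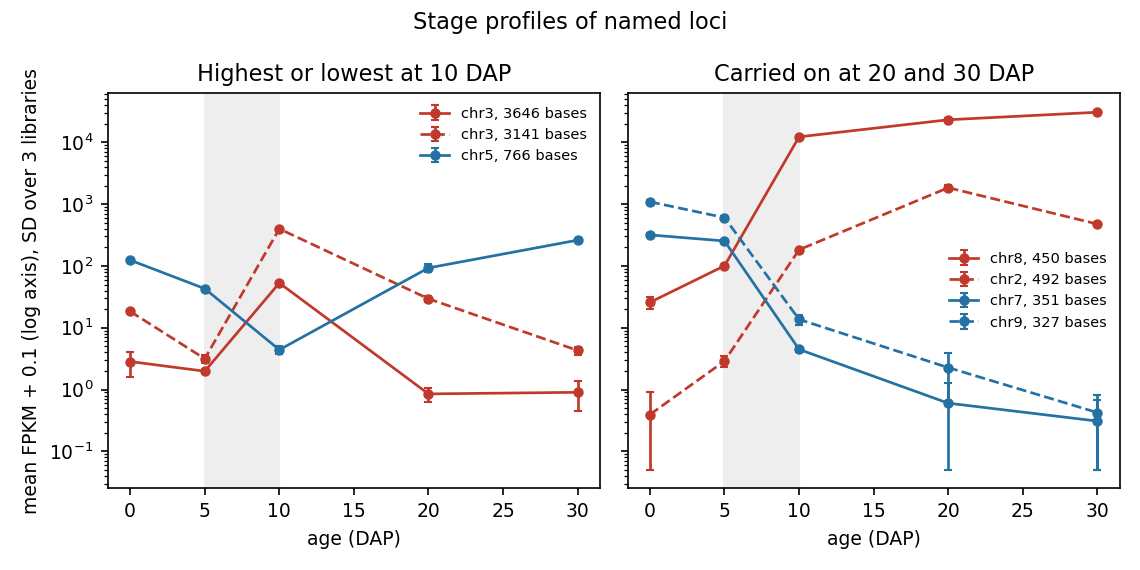
Mean FPKM + 0.1 (log axis) by age in DAP, for the named transient loci (left) and the most strongly changed lasting loci (right). Bars give the SD over 3 libraries, cut at the lower end where it would pass 0. The transient loci shown are those named, out of 15 risen and 1 fallen that met the 4-fold limit. Red lines rose and blue lines fell from 5 to 10 DAP, the shaded interval. Both chromosome 3 loci peak at 10 DAP, and the chromosome 5 locus has its minimum there.

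Loci of 2000 bases or more changed less often than shorter ones. Of the 1446 tested loci spanning under 500 bases, 7.33% rose and 13.9% fell at least 2-fold. Rises were more frequent, at 9%, among the 1788 loci of 500 to 1000 bases, where 13.1% fell. From 1000 to 2000 bases 6.65% rose and 12.8% fell, and from 4000 to 8000 bases 3.93% rose and 7.92% fell. Of the 1813 loci of 8000 bases or more, 29 rose (1.6%) and 81 fell (4.47%). Among loci of 10 to 100 FPKM in the higher age, the share that rose went from 10.4% under 500 bases to 1.17% from 8000 bases on. The share that fell there was 13.8%, 14.2% and 14.1% in the 3 classes under 2000 bases, with no decline among them, and 2.41% from 8000 bases on. The median span was 1832 bases for the risen and 2114 bases for the fallen loci, against 2674 bases for all loci tested. The longest locus to rise at least 2-fold under the naming rule was chr9:18008218-18072456, of 64239 bases, at 5.15, 5.25 and 5.00 FPKM at 5 DAP and 11.5, 11.4 and 12.4 FPKM at 10 DAP (limma, log2 change 1.05, SE 0.06, adjusted p = 1.87e-09). It was followed by chr8:2247689-2268380, whose mean rose from 53.9 ± 0.96 to 141 ± 0.79 FPKM and reached 550 ± 12.7 FPKM at 20 DAP. The longest fallen locus was chr11:8791618-8817590, at 21.2, 23.0 and 22.0 FPKM at 5 DAP and 8.97, 9.14 and 8.61 FPKM at 10 DAP (limma, log2 change -1.22, SE 0.04, adjusted p = 6.1e-12). Its fall was reversed later, with 52.3 ± 0.73 FPKM at 20 DAP. The second, chr11:30071089-30092157, fell from 10.8 ± 0.30 to 3.79 ± 0.47 FPKM and was at 0.167 FPKM at 20 DAP.

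Changed loci were spread over all 11 chromosomes. The share that rose at least 2-fold lay between 4.64% on chromosome 5 and 6.09% on chromosome 6. The share that fell lay between 7.9% on chromosome 4 and 12.1% on chromosome 2. Within chromosomes, loci changed in one direction lay side by side more often than their overall share. The next tested neighbour of a risen locus had also risen in 109 of 907 cases (12%, where 5.26% of all loci rose), and that of a fallen locus had fallen in 282 of 1759 (16%, where 10.2% of all fell). Neighbours in opposite directions were also found, with 79 risen loci (8.71%) followed by a fallen one. In all, 14 stretches of at least 3 consecutive tested loci rose together and 39 fell together, holding 45 and 123 loci. Whether the loci of a stretch are copies of each other, so that reads could be shared among them, was not analysed here.

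The longest falling stretch held 6 loci over 112 kb, at chr6:7330466-7442805. Its log2 fold changes lay between -2.08 and -1.06 (largest limma adjusted p = 1.38e-07), and none of the 6 loci had overlapping libraries. The strongest signal in it, chr6:7366007-7370596, fell from 73.8 ± 2.63 to 25.2 ± 1.19 FPKM (SD, n = 3), and chr6:7330466-7333991 fell from 50.9 ± 0.98 to 11.8 ± 0.68 FPKM. At 20 DAP 5 of the 6 loci were under 0.5 FPKM, and the other, chr6:7414664-7422627, kept 6.47 FPKM. The tested locus directly after this stretch had a log2 change of -0.05, but those following it had -1.83, -3.71 and -0.49. Falls thus went on beyond the end of the stretch. The next falling stretch held 5 tested loci over 454 kb at chr4:1400144-1853902, with 5 untested loci among them. Its 2 last loci are short and fell most. At chr4:1853591-1853902 the level fell from 359 ± 9.21 to 12.1 ± 0.54 FPKM (limma, log2 change -4.77, SE 0.12, adjusted p = 1.13e-12), and at chr4:1839296-1839637 from 130.5 ± 4.77 to 13.6 ± 0.96 FPKM (limma, log2 change -3.18, SE 0.29, adjusted p = 5.13e-07). The first 2 loci of that stretch had been highest at 0 DAP, at 63.0 and 73.3 FPKM, and the last 2 at 5 DAP.

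Rising stretches were shorter, and 3 of them tied at 4 loci. On chromosome 11, chr11:2502879-2523480 held 4 risen loci within 20.6 kb, with log2 fold changes between 1.80 and 3.10. Its first locus, chr11:2502879-2504843, rose from 8.66 ± 0.40 to 81.8 ± 1.42 FPKM, and its second, of 249 bases, from 21.1 ± 2.57 to 163 ± 3.91 FPKM. The third, chr11:2520013-2520891, was the least certain, at 5.49 ± 5.41 and 29.2 ± 8.58 FPKM (limma, log2 change 2.51, SE 0.67, adjusted p = 0.00481). On chromosome 1, chr1:1730663-1760095 held 4 risen loci within 29.4 kb, led by chr1:1756634-1760095, which rose from 9.17 ± 0.37 to 119 ± 2.76 FPKM (limma, log2 change 3.57, SE 0.03, adjusted p = 1.41e-16). On chromosome 6, chr6:690473-722808 held 4 within 32.3 kb, whose log2 fold changes lay between 1.25 and 2.34. Its first locus, chr6:690473-698156, rose most, with 16.3 ± 0.70 FPKM before and 86.9 ± 0.74 FPKM after. The other 3 loci of that stretch were higher still at 20 DAP, among them chr6:700478-703279 with 456 FPKM, while the first was at 74.6 FPKM.

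**Figure D5:**
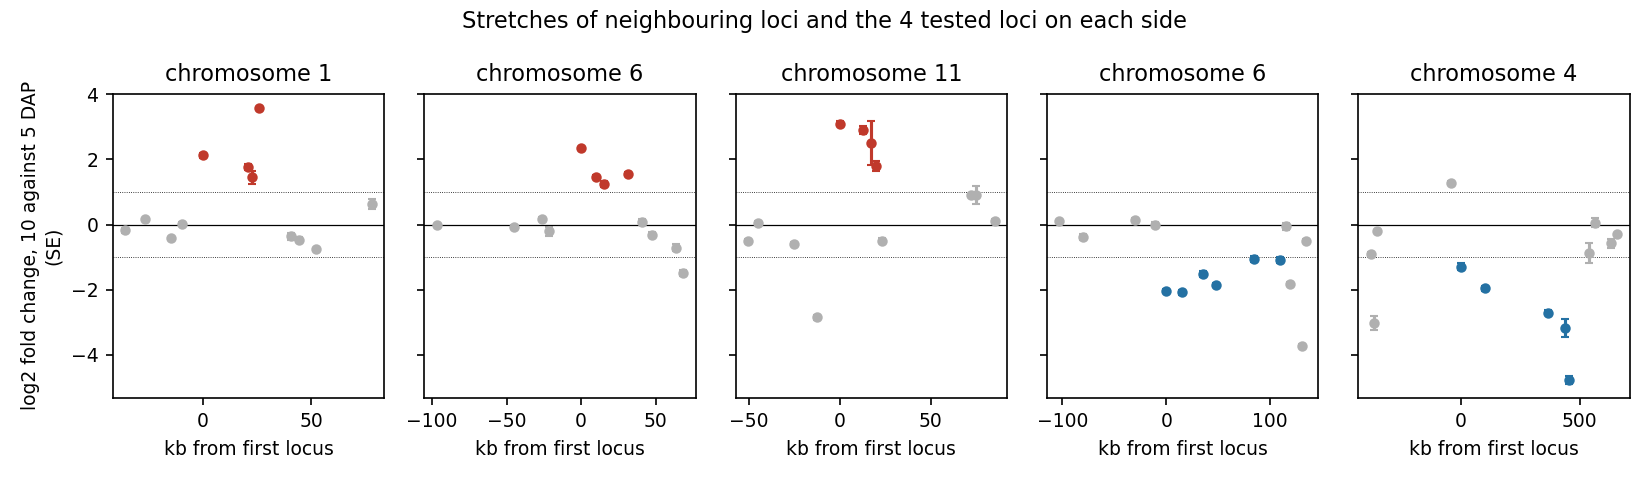
Log2 fold change of 10 against 5 DAP (points, with SE) for the loci of the 5 stretches, plotted by distance in kb from the first locus of each stretch, with rising stretches in red and falling ones in blue. Grey points are the 4 tested loci on each side, and dotted lines mark 2-fold. The tested loci directly before and after each coloured stretch lie inside the dotted lines or on the opposite side, by the definition of a stretch.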

How the data were processed

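Each library came with a deposited table of FPKM per locus. Per the submitters' processing notes, the authors used fastp, HISAT2 and SAMtools 1.5; the quantifier and annotation are not stated there, and the build is known only from the sequence names (WM97pbV1). Libraries were grouped by their age and tissue labels. Tables were matched on chromosome and coordinates. In 1 library of 0 DAP, 11644 values stood 1 row away from their loci and were moved back, which raised its correlation with another library of that age from 0.12 to 0.993. Both libraries of 1 DAP that matched no other library (highest correlation 0.00864 and 0.00772) were left out, as were single blocks of 50 loci in 2 further libraries. These steps were decided once the values had been seen and touch none of the 6 libraries compared.

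Values were tested as log2(FPKM + 1) with limma 3.58.1 (R 4.3.3, trend and robust) on 16 flesh libraries of 0 to 30 DAP, for 17245 loci at 1 FPKM or more in at least 3 libraries. Another 92 loci that reached this level had missing values and were not tested. Calls needed a Benjamini-Hochberg adjusted p under 0.05. Fold changes on this scale understate those of low loci. Single values per library were compared by exact permutation tests. In simulated data for 17245 loci, changes were planted only where the 5 DAP mean was above 3 on the log2(FPKM + 1) scale. Of 100 such loci changed 2-fold 97% were recovered, and of 100 changed by 0.5 on the log2 scale 86%. Another 7 unchanged loci were called. Recovery at lower levels was not tested.

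By rule, at most 2 risen and 2 fallen loci were named in each of 7 groups: largest fold change, largest FPKM difference, under 1 FPKM in the lower age, transient, lasting, longest neighbouring stretches and longest span. Stretches excepted, they had to change 2-fold without overlap and to average 10 FPKM or more at the higher age. Outside the rule, 3 rising stretches that tied in length were given, as were the single loci within stretches and the most abundant loci of each age, chosen after their values had been seen. Lists by product description could not be applied, since the files give no descriptions. The comparison, lists and rules were chosen with earlier results of these data known.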

Additional observations from a re-analysis of the deposited data

How the results depend on the processing

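With a pseudocount of 0.1 in place of 1, 2641 loci were at least 2-fold lower, against 1759. Across the other choices of scaling, filter, libraries and limma options, and that pseudocount, 4050 to 5681 loci were higher, 6345 to 8386 lower, 802 to 1134 at least 2-fold higher and 1393 to 2641 at least 2-fold lower. Leaving out 1 of the 6 libraries in turn gave 4014 to 4094 higher, 7505 to 7595 lower, 884 to 922 at least 2-fold higher and 1721 to 1769 at least 2-fold lower. The difference in the share of the 100 highest loci was then 4.91 to 5.27 percentage points, and that in loci at 1 FPKM or more -719.5 to -694. Of 439 alternative values for 28 loci (the 18 of the naming rule and 10 further abundant ones), 436 kept direction and side of the threshold. These loci had been picked for large changes or high levels, so the count does not speak for the calls at large. At chr5:35494385-35496772, which did not pass the test (log2 change -0.07), median-of-ratios scaling gave 0.07. The 2 fits on the 6 libraries of 5 and 10 DAP alone, without and with a replicate block, called the fall (limma, adjusted p = 0.0129 and 0.0187).

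Replicate numbers did not pair the libraries. Deviations of same-numbered libraries correlated at -0.07, -0.039 and 0.026. With replicate number as a block, 4224 loci were higher and 7907 lower, and 906 and 1757 passed the 2-fold limit in those directions. Estimated depth limits short loci most, as 1 FPKM stands for few fragments there.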
